A study of Mus musculus with 6 samples.

Results

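The Hox genes of the 4 mouse clusters were examined in the embryonic urogenital ridge with and without Wt1, the Wilms tumour gene. The members are all genes whose probe carries a single platform symbol made of Hoxa, Hoxb, Hoxc or Hoxd and a number. They are 32 genes with 33 probes, out of 39 Hox genes in the RefSeq gene table and 13769 genes named on the array, and 28 of the 32 passed the filter on dim probes and were tested. Single-colour oligonucleotide arrays were hybridised with RNA from pooled ridges at E11.5, before the gonads of the sexes diverge. The wild-type group was Mf1 +/+ and the knockout group Mf1 homozygous for a deletion of Wt1, with 3 arrays of each. Each array stands for 5 embryos, 4 of them female and 1 male, staged at 11 to 12 tail somites. Neither group was treated. Whether each array had a pool of embryos of its own is not stated, so p-values measure the spread between these arrays only, which may be technical.

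Wt1 was lower in the knockout, with intensities of 44.1, 43.6 and 39.1 on the wild-type arrays and 14.3, 15.7 and 14.2 on the knockout arrays. Wt1 had 2 probes, of which 1 stands for the gene here and the other is not reported. Where the reported probe lies relative to the deletion is unknown here, so what signal is left says nothing about whole Wt1 mRNA. Among the other genes used as a check of the tissue, the gonadal regulators Lhx9, Emx2 and Nr5a1 and the nephric duct gene Gata3 were all above the filter limit in wild type, as was Gata4. Pax8 was too dim to be tested and Pax2 was not analysed here. Array pairs correlated at r = 0.991 to 0.992 within wild type, 0.983 to 0.986 within the knockout and 0.966 to 0.972 across genotypes (Pearson's r across tested probes, which are not independent replicates). In bulk tissue, fewer cells of a type and less RNA per cell cannot be told apart.

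Hox genes encode homeodomain transcription factors that set position along the head to tail axis. Within a cluster the genes stand in the order in which they are switched on, so that genes with low paralogue numbers start early and reach far forward while genes with high numbers start late and stay towards the tail. Genes with the same number in different clusters are paralogues that share much of their sequence and function. Hox proteins bind DNA with partner homeodomain proteins of the Pbx, Meis and Pknox families. In the urogenital system, Hox10 and Hox11 paralogues act in kidney formation and Hox9 to Hox13 paralogues pattern the reproductive ducts.

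The sequence upstream of the start of transcription was taken from RefSeq (GRCm38.p6) for the Hox genes with an entry, 22 in all and 19 of the 32 on the array, and 6 of the called genes have one. The 250 bases before the annotated start are shown for 4 of those 6. They are Hoxb1, the largest gain (chr11:96365508-96365757, plus strand), Hoxa5, the largest gain in cluster A (chr6:52204588-52204837, minus strand), Hoxc4, a smaller gain (chr15:103034145-103034394, plus strand), and Hoxd9, the largest loss (chr2:74697513-74697762, plus strand). Each is written 5′ to 3′ on the gene's strand, and capitals mark a match to one of the 5 motifs searched.
Hoxb1: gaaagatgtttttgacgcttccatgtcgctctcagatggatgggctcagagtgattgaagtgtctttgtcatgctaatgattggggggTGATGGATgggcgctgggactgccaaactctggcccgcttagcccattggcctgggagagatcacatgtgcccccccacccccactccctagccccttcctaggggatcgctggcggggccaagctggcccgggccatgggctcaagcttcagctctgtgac
Hoxa5: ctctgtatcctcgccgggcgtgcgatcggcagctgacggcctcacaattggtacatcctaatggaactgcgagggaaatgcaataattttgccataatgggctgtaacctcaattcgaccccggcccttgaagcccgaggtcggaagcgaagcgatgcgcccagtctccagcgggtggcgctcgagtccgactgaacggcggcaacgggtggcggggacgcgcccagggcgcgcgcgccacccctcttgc
Hoxc4: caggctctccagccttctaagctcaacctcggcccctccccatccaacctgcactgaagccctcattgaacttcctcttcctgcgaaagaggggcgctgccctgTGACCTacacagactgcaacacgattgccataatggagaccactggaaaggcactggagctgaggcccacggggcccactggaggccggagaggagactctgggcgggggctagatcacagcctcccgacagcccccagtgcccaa
Hoxd9: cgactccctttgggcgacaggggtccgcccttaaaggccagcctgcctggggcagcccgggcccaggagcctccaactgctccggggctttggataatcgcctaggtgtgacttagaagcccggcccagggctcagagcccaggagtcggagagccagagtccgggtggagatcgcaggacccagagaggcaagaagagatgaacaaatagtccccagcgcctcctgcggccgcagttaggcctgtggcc
The motifs were searched on both strands. The Pbx-Hox motif TGATNNAT lay in 4 of 24 Hox windows (16.7%) and in 7.68% of all 32851 windows of this length. In Hoxb1 its match was TGATGGAT, from 162 to 155 bases before the start. An autoregulatory element with Pbx-Hox sites is known upstream of Hoxb1. The nuclear receptor half-site AGGTCA lay in 6 Hox windows (25%, against 14.02% of all) and matched in Hoxc4 as its reverse complement TGACCT, from 146 to 141 bases before the start. The Meis motif TGACAG lay in 2 Hox windows (8.33%, against 15.9% of all) and the Cdx motif TTTATNG in 2 (8.33%, against 9.81%). The motif GCGTGGGNG of Wt1 and Egr proteins lay in 1 Hox window, that of Hoxa2 (4.17%, against 1.65%). None of these letters stand in the windows of Hoxa5 and Hoxd9. A match describes letters in this window and is no measured site.

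Hox genes changed in both directions when Wt1 was absent. Of the 28 tested genes, 10 rose, 5 fell and 13 did not pass adjusted p under 0.05 (limma, Benjamini-Hochberg over all 15062 tested probes). The genes that rose were Hoxb1, Hoxc9, Hoxa5, Hoxb6, Hoxb9, Hoxc4, Hoxb3, Hoxb7, Hoxa10 and Hoxa7, and those that fell were Hoxd9, Hoxa4, Hoxc5, Hoxc6 and Hoxb2. The called share was 53.6%, beside 41.3% of all tested probes. By direction it was 35.7% higher and 17.9% lower, beside 24.1% and 17.2% of all tested probes, so the share of losses was close to the background. Changes of at least 1.5-fold were called at 7 Hox genes, 3 higher and 4 lower (Hoxa5 is under 1.5-fold with other scalings, as given with its values), which is 25% beside 15.5% of all probes (6.83% higher and 8.68% lower). Changes of at least 2-fold were called at Hoxb1, Hoxd9 and Hoxa4, or 10.7% beside 4.69%. Wild-type and knockout arrays were fully separated at 17 Hox genes (60.7%, beside 52.8% of all tested probes). Of these, 11 were higher and 6 lower, beside 31.4% and 21.4% of all tested probes. The median log2 change of the tested Hox genes was 0.17 and that of all tested probes 0.09, and the median size of the change without its sign was 0.33 and 0.30.

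**Figure D1:**
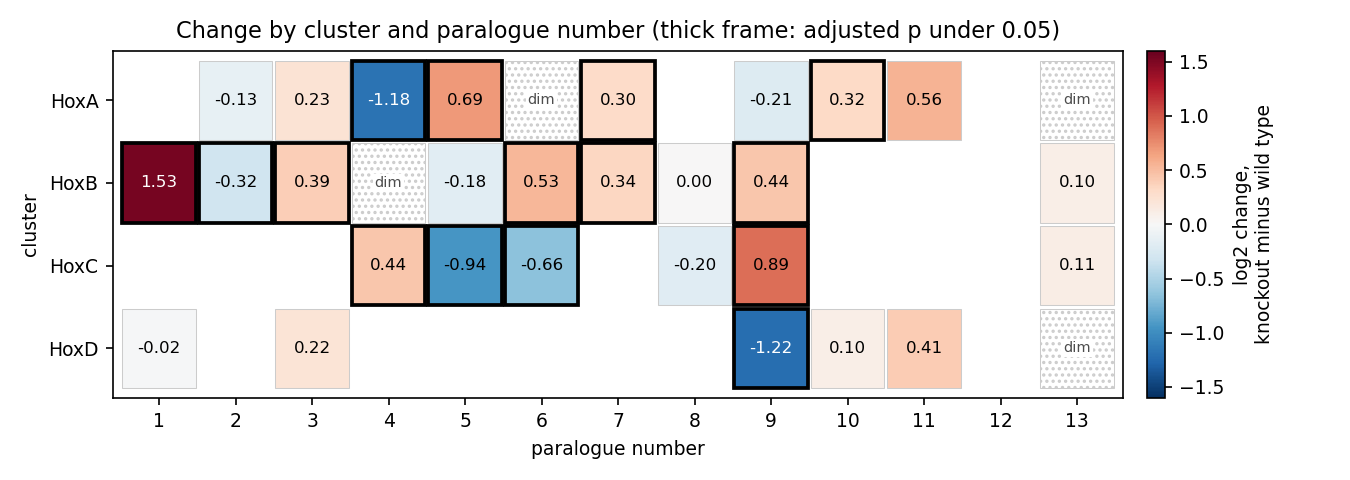
Log2 change, knockout minus wild type, for each Hox gene by cluster (rows) and paralogue number (columns). Red is higher and blue lower in the knockout, a thick frame marks adjusted p under 0.05, dotted cells were too dim to test, and blank positions hold no mouse gene or one not analysed here. Gains and losses stand side by side in clusters A, B and C, and the called genes run from -1.22 at Hoxd9 to 1.53 at Hoxb1.

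In cluster A, 3 of 8 tested genes rose and 1 fell (50% called, beside 41.3% of all tested probes). Hoxa5, which acts in lung and cervical to thoracic patterning, had intensities of 86.7, 90.4 and 77.6 in wild type and 123, 142 and 147 in the knockout. Every knockout array lay above every wild-type array, and averages of 84.9 ± 6.60 and 137 ± 12.6 (SD, n = 3 each) gave a 1.61-fold gain (log2 change 0.69 ± 0.09, SE, limma adjusted p = 9.91e-05). Under quantile and cyclic loess normalization the gain of Hoxa5 shrank to log2 changes of 0.38 and 0.40 and still passed. The next gene in the cluster, Hoxa4, went the other way. Its wild-type values were 1.36, 1.45 and 1.35 and its knockout values 0.697, 0.454 and 0.731, a 2.26-fold loss (log2 change -1.18 ± 0.18, limma adjusted p = 0.000268). Hoxa7 rose 1.23-fold, from 2.91, 2.83 and 2.61 to 3.52, 3.44 and 3.34 (limma adjusted p = 0.0113). Hoxa10, a gene of uterine and kidney patterning, rose 1.25-fold, from 1.11, 1.10 and 1.02 to 1.34, 1.37 and 1.32 (limma adjusted p = 0.0316). The groups of both genes did not overlap. The calls of these small gains depended on single arrays: that of Hoxa7 ended without wild-type array 3 (adjusted p = 0.0531), and that of Hoxa10 without any one wild-type array or knockout array 2 or 3 (adjusted p = 0.0526 to 0.103).

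The other tested genes of cluster A did not pass. Hoxa3, a gene of the pharyngeal arches and neck, had 1.73, 1.79 and 1.99 in wild type and 2.001, 2.07 and 2.38 in the knockout, with no overlap but adjusted p = 0.0991 (limma). Without knockout array 1 its adjusted p was 0.0351. Hoxa2, a hindbrain and second arch gene, had a log2 change of -0.13 ± 0.14 (SE) and Hoxa9 one of -0.21 ± 0.20. Hoxa11, which acts with its paralogues in the metanephric mesenchyme, varied widely within a genotype, with 0.276, 0.344 and 0.542 in wild type and 0.503, 0.425 and 0.770 in the knockout. Its log2 change of 0.56 ± 0.31 did not pass (adjusted p = 0.166), and its groups overlapped.

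In cluster B, 5 of 9 tested genes rose and 1 fell (66.7% called, beside 41.3% of all tested probes). Hoxb1, a gene best known for its place in the fourth hindbrain segment, made the largest gain of any tested Hox gene. Its wild-type values of 1.04, 1.053 and 1.01 lay within a narrow range and its knockout values were 2.59, 3.33 and 3.13. Hoxb1 averaged 1.04 ± 0.0199 without and 3.02 ± 0.385 with the deletion (SD, n = 3 each), a 2.89-fold gain (log2 change 1.53 ± 0.11, SE, limma adjusted p = 1.52e-06). The platform annotation ties this probe to a record that is no RefSeq mRNA, as it does for 6 of the 33 Hox probes, among them those of Hoxa3, Hoxa4, Hoxb9 and Hoxc13. Which transcript of the locus it reads is unknown here.

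The neighbour of Hoxb1, Hoxb2, was among the genes that fell. Its values were 4.06, 4.36 and 3.79 in wild type and 3.79, 2.91 and 3.16 in the knockout, so that the closest arrays of the genotypes, at 3.793 and 3.792, all but met. The loss was 1.24-fold (log2 change -0.32 ± 0.11, adjusted p = 0.0311), and the call ended without wild-type array 1 or 2 or knockout array 2 or 3 (adjusted p = 0.0831 to 0.131). Hoxb3, another hindbrain and neck gene, had 46.1, 41.7 and 44.7 in wild type and 63.6, 54.1 and 55.9 in the knockout, a 1.31-fold gain (adjusted p = 0.00245). Under quantile and cyclic loess normalization the gain of Hoxb3 shrank to log2 changes of 0.12 and 0.17 and did not pass.

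Among the trunk genes of cluster B, Hoxb6 rose 1.44-fold, from 15.5, 18.5 and 19.5 to 26.0, 25.6 and 25.2 (log2 change 0.53 ± 0.09, SE, adjusted p = 0.000557). Its knockout arrays lay closer together than its wild-type arrays. Hoxb7, a gene also expressed in the nephric duct, rose 1.27-fold, from 16.1, 15.6 and 14.96 to 17.3, 22.1 and 19.8 (adjusted p = 0.00982). Hoxb9, a thoracic gene, rose 1.36-fold, from 3.02, 2.91 and 2.95 to 3.93, 4.31 and 3.85 (adjusted p = 0.00102). Under quantile and cyclic loess normalization the log2 change of Hoxb7 shrank from 0.34 to 0.21 and 0.22 and still passed. That of Hoxb6 shrank from 0.53 to 0.38 and 0.39 under these scalings and passed as well. All of these p-values are from limma, and none of the 3 genes had overlapping groups. Hoxb5, Hoxb8 and Hoxb13 did not pass, with log2 changes of -0.18 ± 0.10, 0.00146 ± 0.12 and 0.10 ± 0.09 (SE). Hoxb8 sat at 1.07 ± 0.0901 in wild type and 1.07 ± 0.0341 in the knockout (SD, n = 3 each).

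**Figure D2:**
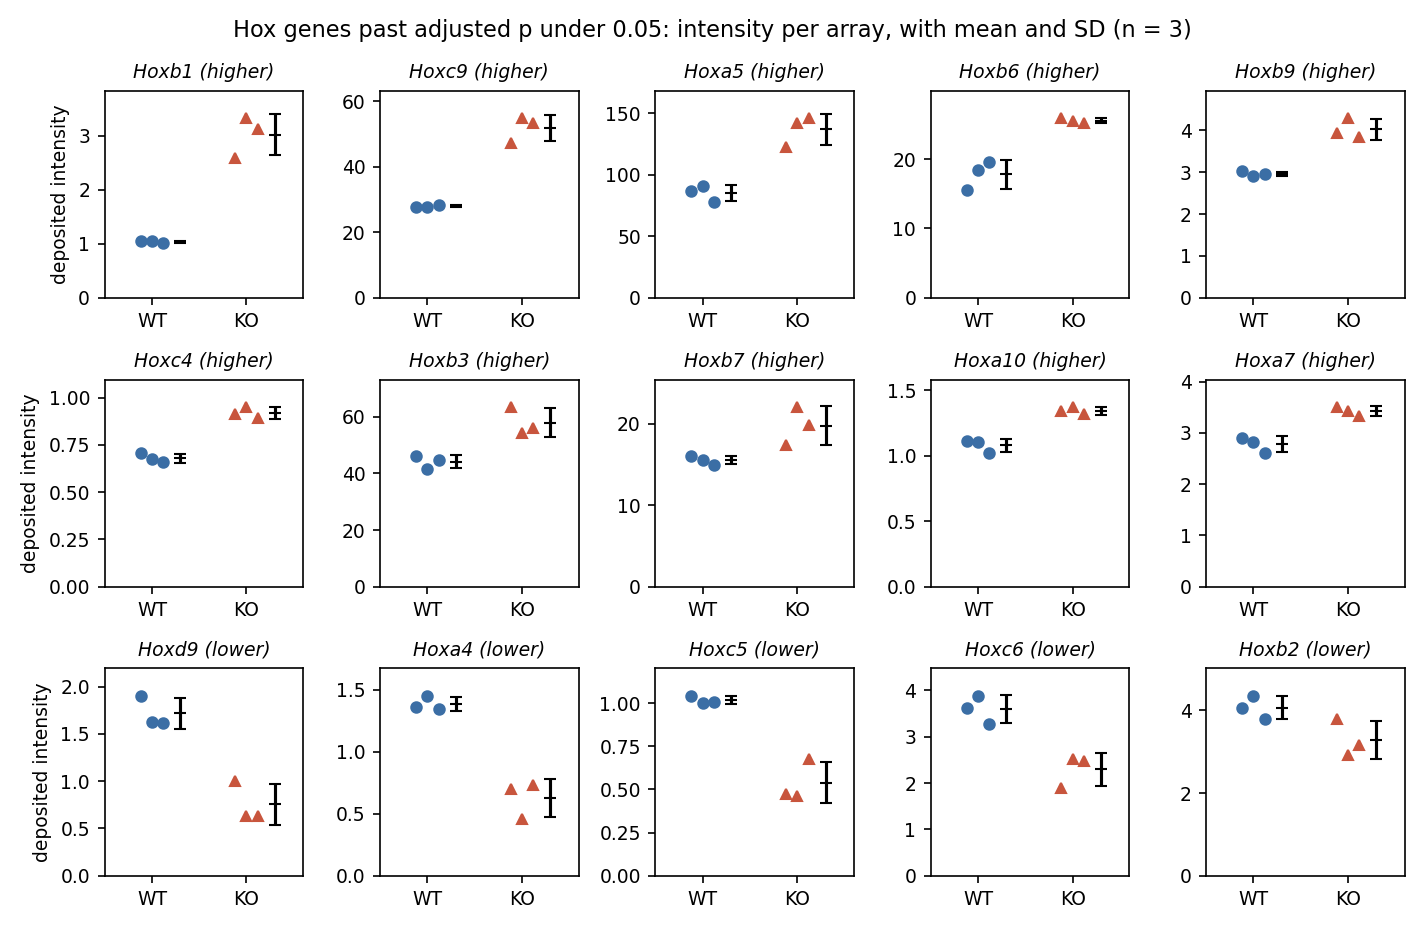
Deposited intensity on each array for the 15 Hox genes past adjusted p under 0.05, wild type (WT, blue circles) and knockout (KO, red triangles), with mean and SD beside each group (n = 3) and axes that start at 0. The genotypes do not overlap in any panel, and for Hoxb2 the closest arrays, at 3.793 and 3.792, all but meet.

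Cluster C held the most mixed pattern, with 2 of 6 tested genes higher and 2 lower (66.7% called, beside 41.3% of all tested probes). Hoxc9, a gene of the thoracic region, had 27.8, 27.7 and 28.3 in wild type and 47.3, 55.0 and 53.3 in the knockout. It averaged 27.9 ± 0.309 and 51.9 ± 4.05 in turn (SD, n = 3 each), a 1.85-fold gain (log2 change 0.89 ± 0.08, SE, limma adjusted p = 5.04e-06). The log2 change of Hoxc9 shrank to 0.65 and 0.70 under quantile and cyclic loess normalization and still passed. Hoxc5 and Hoxc6, cervical and anterior thoracic genes next to each other in the cluster, both fell. Hoxc5 went from 1.04, 1.0001 and 1.01 to 0.474, 0.464 and 0.675, a 1.92-fold loss (limma adjusted p = 0.00110), and Hoxc6 from 3.63, 3.89 and 3.28 to 1.89, 2.52 and 2.47, a 1.58-fold loss (limma adjusted p = 0.000918). Hoxc4, on the other side of Hoxc5, rose 1.35-fold from 0.707, 0.675 and 0.658 to 0.916, 0.954 and 0.892 (limma adjusted p = 0.0214). That call ended without wild-type array 2 or 3 (adjusted p = 0.0660 and 0.0658).

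Hoxc8, between the genes that fell and the one that rose most, lay just outside the threshold. Its values were 51.8, 52.8 and 46.5 in wild type and 44.3, 42.6 and 44.9 in the knockout, with no overlap, a log2 change of -0.20 ± 0.07 (SE) and adjusted p = 0.0532 (limma). It passed as lower without wild-type array 3 (adjusted p = 0.0297) or knockout array 1 (0.0213), and under quantile and cyclic loess normalization, where its log2 change was -0.43 and -0.41. Hoxc13, a gene of hair and nail, had a log2 change of 0.11 ± 0.12 and did not pass. Transcripts of the Hoxc4 to Hoxc6 stretch are known to share upstream exons, and where each probe lies is unknown here.

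In cluster D, 1 of 5 tested genes fell and none rose in limma's test, with 1 higher at an unadjusted p under 0.05. The called share was 20%, beside 41.3% of all tested probes. Hoxd9 had 1.91, 1.63 and 1.62 in wild type and 1.01, 0.627 and 0.631 in the knockout, so that all wild-type arrays lay above all knockout arrays. Its means of 1.72 ± 0.163 and 0.755 ± 0.217 (SD, n = 3 each) gave a 2.33-fold loss (log2 change -1.22 ± 0.18, SE, limma adjusted p = 0.000203). Its neighbour Hoxd10, a gene of limb and sacral patterning, had a log2 change of 0.10 ± 0.08 with overlapping groups. Hoxd11, a paralogue of Hoxa11 in kidney formation, had 0.807, 1.047 and 0.791 in wild type and 1.01, 1.46 and 1.06 in the knockout (log2 change 0.41 ± 0.17, adjusted p = 0.0707). It passed as higher without knockout array 1 (adjusted p = 0.0178) or wild-type array 2 (adjusted p = 0.0448). Hoxd1 and Hoxd3 had log2 changes of -0.02 ± 0.30 and 0.22 ± 0.40, errors too wide to show a change of the size seen at Hoxa5.

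**Figure D3:**
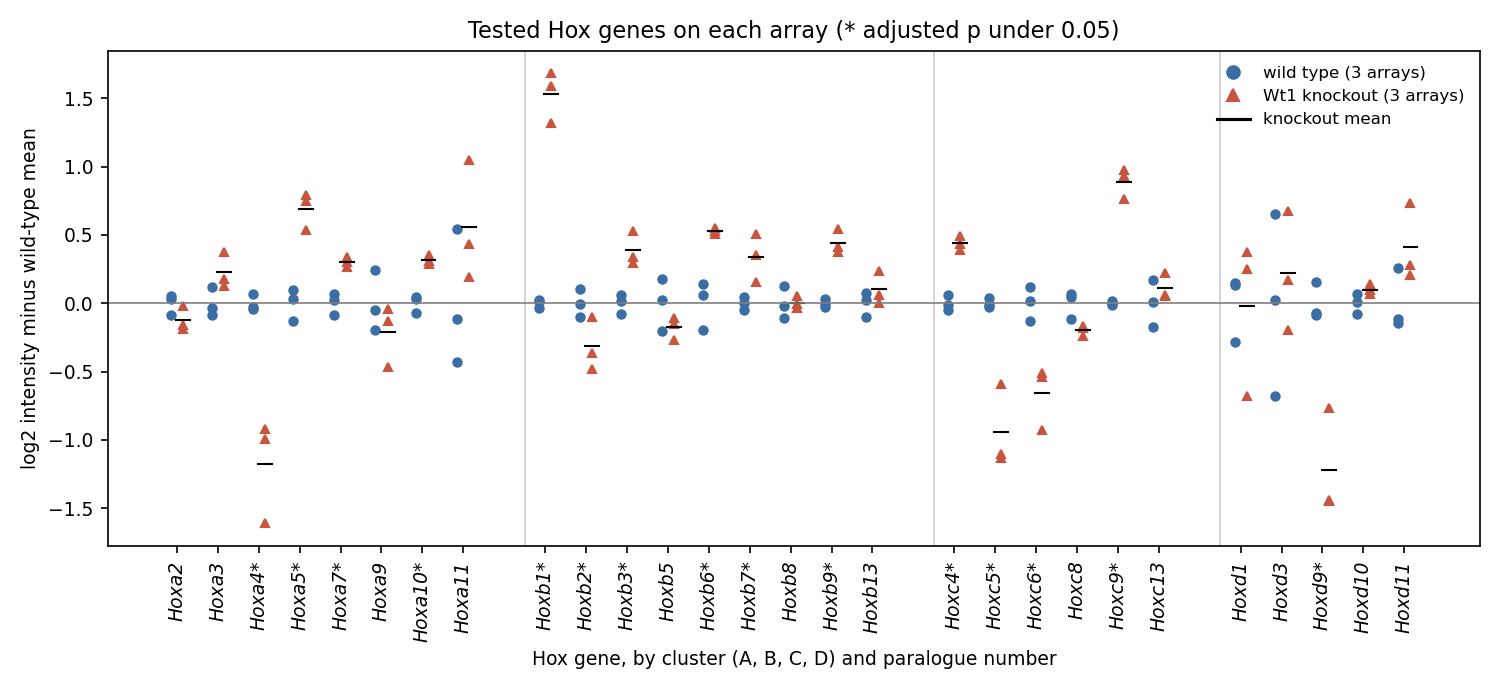
Each tested Hox gene on every array, as log2 intensity minus the gene's own wild-type mean, ordered by cluster and paralogue number, with wild type as blue circles, knockout as red triangles and the knockout mean as a black bar. A star marks adjusted p under 0.05. The arrays of a genotype lie close together for most genes and spread widely for Hoxa11, Hoxd1 and Hoxd3.

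Gains and losses were spread over the paralogue numbers. Pearson's r between paralogue number and log2 change was 0.0019 and Spearman's rho 0.0967 over the 28 genes, which share arrays and are no independent replicates. Of the genes numbered 1 to 3, 2 rose and 1 fell among 7 tested. Among those numbered 4 to 8, 5 rose and 3 fell of 11, and among those numbered 9 to 13, 3 rose and 1 fell of 10. The called shares were 42.9%, 72.7% and 40% in turn, beside 41.3% of all tested probes, so the first and last were near the background. Paralogues went apart as well as together. Of 7 pairs of paralogues in which both genes were called, 2 moved the same way (Hoxa7 with Hoxb7 and Hoxb9 with Hoxc9) and 5 went opposite ways. The opposite pairs were Hoxa4 and Hoxc4, Hoxa5 and Hoxc5, Hoxb6 and Hoxc6, and Hoxd9 with Hoxb9 and with Hoxc9. Of 6 pairs of genes next to each other in a cluster with both called, 2 moved the same way and 4 opposite ways. Among these neighbours, only Hoxa4 with Hoxa5 (opposite) and Hoxc5 with Hoxc6 (same) kept both calls in every fit that tested them. Of the paralogue pairs, Hoxa7 with Hoxb7 and Hoxa4 with Hoxc4 hold a gene whose call ended in some fit. Some genes stand in more than 1 pair, so the pairs are not independent. With both gains and losses present, opposite pairs also arise among unrelated genes, and whether these counts differ from that was not tested.

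Bright and dim probes were counted apart. Of the 13 tested Hox genes brighter than the median tested probe, 7 rose and 2 fell, and of the 15 at or below it 3 rose and 3 fell. Over all tested probes the split was 2694 higher and 1508 lower among 7531 brighter probes and 931 higher and 1088 lower among 7531 dimmer ones. The part of signal strength in the Hox pattern was not tested beyond the scaling alternatives, under which the direction of every called Hox gene was kept.

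A further 4 Hox genes had probes too dim to test. Hoxa6 had 0.0756, 0.100 and 0.100 in wild type and 0.183, 0.189 and 0.135 in the knockout, all under the filter limit of 0.217. With no filter on dim probes its log2 change was 0.84 and did not pass (adjusted p = 0.167, limma). Hoxd13, a gene of digits and external genitalia, had 2 probes. The brighter one read 0.0879, 0.103 and 0.0894 in wild type and 0.208, 0.253 and 0.273 in the knockout, and with no filter on dim probes it passed as higher (adjusted p = 0.0179, limma). The second probe did not pass in that fit (adjusted p = 0.678) and its groups overlapped. The platform annotation ties the second probe to a RefSeq mRNA and the brighter one to a record that is none. Hoxa13 and Hoxb4 had overlapping groups and did not pass either (adjusted p = 0.487 and 0.904). Hoxc10, Hoxc11, Hoxc12, Hoxd4, Hoxd8 and Hoxd12 were not analysed here.

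Of the partner proteins that bind DNA with Hox proteins, 4 of 7 tested genes rose and 1 fell, 71.4% called beside 41.3% of all tested probes. Meis2 went from 29.1, 27.2 and 32.3 to 46.3, 50.3 and 50.2, a 1.66-fold gain (limma adjusted p = 3.02e-05). Pbx2 rose 1.33-fold (adjusted p = 0.00110) and Pknox1 1.32-fold (adjusted p = 0.0130). Meis1 passed narrowly as 1.154-fold higher (adjusted p = 0.0468) but had log2 changes of -0.07 and -0.08 under quantile and cyclic loess normalization and did not pass there. Meis3 was 1.25-fold lower. The list's median log2 change was 0.21, beside 0.09 over all tested probes.

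Regulators of Hox genes, the ParaHox genes and genes reported downstream of Hox proteins were counted list by list. Each list is read beside the 41.3% of all tested probes that were called, 24.1% higher and 17.2% lower. Of 5 tested Cdx and ParaHox genes, 2 rose and none fell (none at an unadjusted p under 0.05 either), 40% called and so near that background. They were Cdx1, an activator of trunk Hox genes, 1.54-fold higher from 2.25, 2.17 and 2.70 to 3.998, 3.04 and 3.99 (limma adjusted p = 0.00166), and Gsx2, 1.24-fold higher. Of 6 genes of axial extension, 2 rose and 1 fell (50% called). Nr6a1, a nuclear receptor gene of the trunk, rose 1.49-fold. Acvr2b, a receptor for Gdf11, rose 1.47-fold but did not pass under quantile and cyclic loess normalization. Wnt5a fell 1.84-fold, from 0.679, 0.682 and 0.585 to 0.581, 0.237 and 0.315 (limma adjusted p = 0.0347). The closest Wnt5a arrays of the genotypes, at 0.585 and 0.581, all but met. Of 10 retinoic acid genes, a pathway that switches on Hox genes of low number, 5 rose and 2 fell (70% called), with 4 higher under quantile and 3 under cyclic loess normalization. Crabp1 did not pass under either scaling. Crabp2 was 1.54-fold higher, with its log2 change of 0.62 at 0.35 and 0.36 under these scalings and still passing, while Rxrb was 1.63-fold and Aldh1a1 8.02-fold lower. Of 11 polycomb genes, whose products keep Hox genes silent, 5 rose and 1 fell (54.5% called), but under quantile and cyclic loess normalization 3 rose and 5 fell. Ezh1 was 1.56-fold higher (adjusted p = 6.89e-05) and Ring1 1.604-fold lower (adjusted p = 9.99e-05), and both kept their call and direction under those scalings. Of 9 trithorax and related genes, whose products keep Hox genes active, 4 rose and 1 fell (55.6% called). Wdr5 rose 1.503-fold and Kdm6a, a histone demethylase gene, fell 1.86-fold (adjusted p = 7.24e-06). Of 7 tested genes reported downstream of Hox proteins, 2 rose and 1 fell (42.9% called, near the background), with Osr1 1.55-fold and Epha7 1.51-fold higher and Bmp2 1.501-fold lower.

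The genes on either side of the clusters were compared to see whether a change ran past the Hox genes. Beside cluster C, 4 of 5 tested neighbours fell and none rose (none at an unadjusted p under 0.05 either), 80% lower beside 17.2% of all tested probes. Calcoco1 fell 2.52-fold, from 2.72, 3.12 and 2.84 to 1.33, 1.02 and 1.10, and Smug1, Atp5g2 and Hnrnpa1 fell 1.41-fold, 1.30-fold and 1.26-fold. Beside cluster A, 3 of 6 fell (50%) and 1 rose. Skap2 fell 1.93-fold, while Evx1, an even-skipped homeobox gene, had a log2 change of 0.35 ± 0.21 (SE) and did not pass. Beside cluster B 1 of 3 rose and none fell, and beside cluster D 1 of 3 rose and none fell, with 1 lower at an unadjusted p under 0.05 in each. Under quantile and cyclic loess normalization 1 neighbour of cluster B fell, and beside cluster D none rose and 1 fell. Evx2, next to cluster D, was too dim to test. Of the 2 even-skipped genes 1 was thus tested and none called.

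Other tissues next to the ridge also express Hox genes, and their markers moved in the same arrays. Of 10 tested somite genes, 6 rose and none fell, with none lower at an unadjusted p under 0.05, and the summed intensity of all listed genes on the array ran from 28.5 to 29.6 in wild type and from 38.9 to 42.0 in the knockout. Under cyclic loess normalization 1 fell. Dmrt2 was 6.30-fold and Meox2 3.999-fold higher, while Pax3 (log2 change -0.12 ± 0.07, SE), Meox1, Tbx6 and Mesp2 did not pass. By direction, 24.1% of all tested probes were higher and 17.2% lower. Of 8 tested neural tube genes, 4 rose and none fell, with none lower at an unadjusted p under 0.05, and the summed intensity ran from 18.9 to 21.0 and from 47.99 to 50.4. That rise rested on Zic1, which was 19.5-fold higher: the other 7 tested genes summed to 16.9 to 18.8 in wild type and 17.0 to 21.0 in the knockout, which overlap. Zic2 (15.9 ± 1.07 and 14.5 ± 1.94, SD, n = 3 each), Lhx2 and Dbx2 did not pass. Dbx1 was at least 6.44-fold higher, a bound set against the filter limit. Dbx1, Nkx2-2 and Neurog1 had wild-type means under that limit and passed the filter only through their knockout values. They could thus be called only as higher, and the same holds for Pax9 among the somite genes. Neurog1 did not pass under quantile and cyclic loess normalization (limma adjusted p = 0.0543 and 0.0528). Sox2, Olig2, Neurog2 and Lhx5 were too dim to test on these arrays. Without knockout array 2 or knockout array 3, 2 of the neural tube genes rose, and without knockout array 1 there was 1 that fell. Of 6 gut and splanchnic mesenchyme genes, 5 rose and none fell, with none lower at an unadjusted p under 0.05, and the sum ran from 17.2 to 18.2 and from 46.0 to 49.0. Tlx1 was 6.79-fold and Barx1 5.62-fold higher.

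Limb bud and kidney markers were counted in the same way, beside 24.1% higher and 17.2% lower of all tested probes. Of 8 limb bud genes, 1 rose (12.5%) and 3 fell (37.5%), with sums of 18.3 to 18.6 in wild type and 15.3 to 16.6 in the knockout. Tbx4 and Shh were too dim to test. Of 4 metanephric mesenchyme genes, 1 rose, Osr1 (25%), and none fell, with none lower at an unadjusted p under 0.05. The sums overlapped, from 7.01 to 7.22 in wild type and from 7.15 to 8.69 in the knockout. Of 8 tested urogenital ridge genes, 2 rose (25%) and 4 fell (50%). Besides Wt1, the deleted gene, Lhx9 fell 3.78-fold, Emx2 1.54-fold and Nr5a1 1.32-fold, while Osr1 and Gata3 rose. Wt1 included, the sums were 67.4 to 70.8 in wild type and 41.8 to 44.8 in the knockout. The fall of the sum, unlike the count of genes that fell, rested on Wt1. The other 7 tested genes summed to 26.0 to 28.0 in wild type and 27.4 to 30.4 in the knockout, which overlap. Among them Gata3 rose from 9.64 ± 0.304 to 16.7 ± 1.37 (SD, n = 3 each). The part of these tissues in the changes of the Hox genes was not tested.

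**Figure D4:**
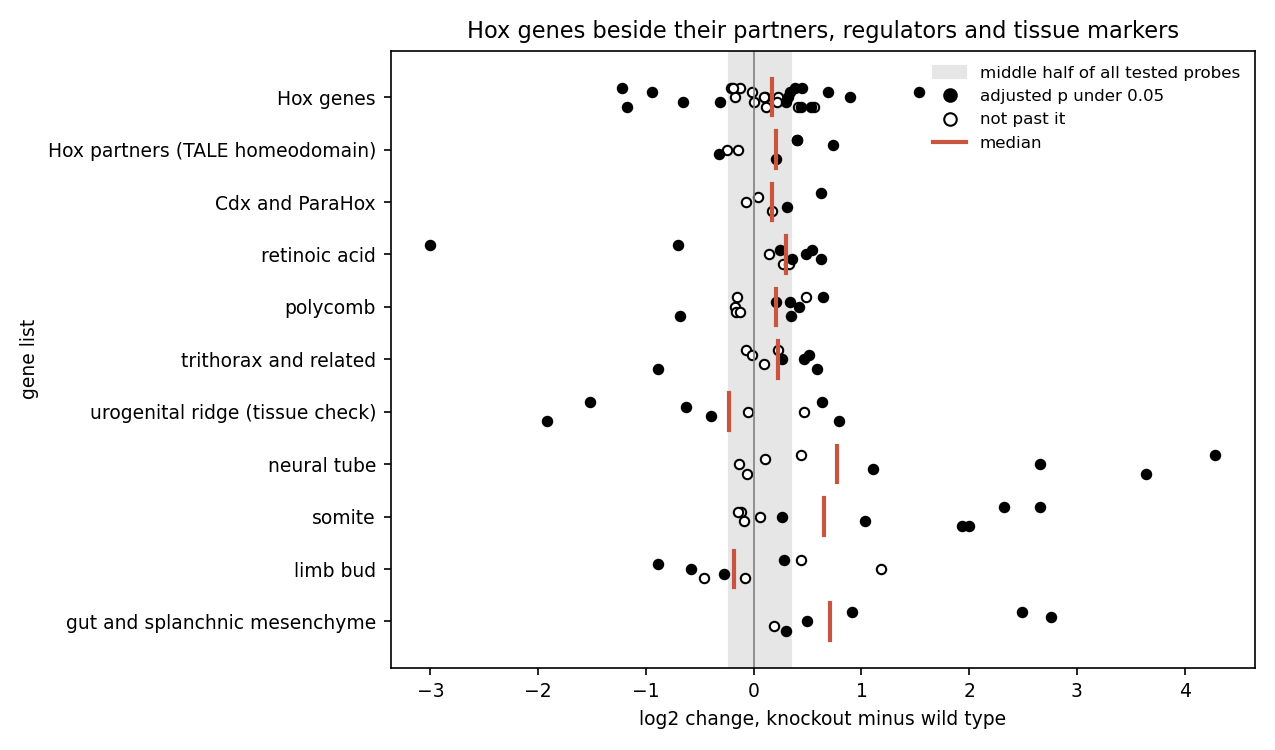
Log2 change, knockout minus wild type, of every tested gene (points) in the Hox genes and in 10 of the lists, with the list median as a red bar, filled points for adjusted p under 0.05 and a grey band from the lower to the upper quartile of all tested probes. Hox genes run from -1.22 to 1.53 around a median of 0.17, and the somite, neural tube and gut mesenchyme lists hold points beyond 2.

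The calls were compared over 16 other ways of fitting the same arrays. Of the 15 called Hox genes, 9 passed in the same direction in every fit that tested them: Hoxa5, Hoxb1, Hoxb6, Hoxb9 and Hoxc9 as higher and Hoxa4, Hoxc5, Hoxc6 and Hoxd9 as lower. Hoxa4 and Hoxc5 were left out by the stricter filter on dim probes, as they are dimmer than the median probe. The call of the other 6, Hoxa7, Hoxa10, Hoxb2, Hoxb3, Hoxb7 and Hoxc4, ended in at least 1 fit. Of the 13 genes not called, Hoxa3, Hoxc8 and Hoxd11 passed in at least 1 other fit and 10 in none.

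**Figure D5:**
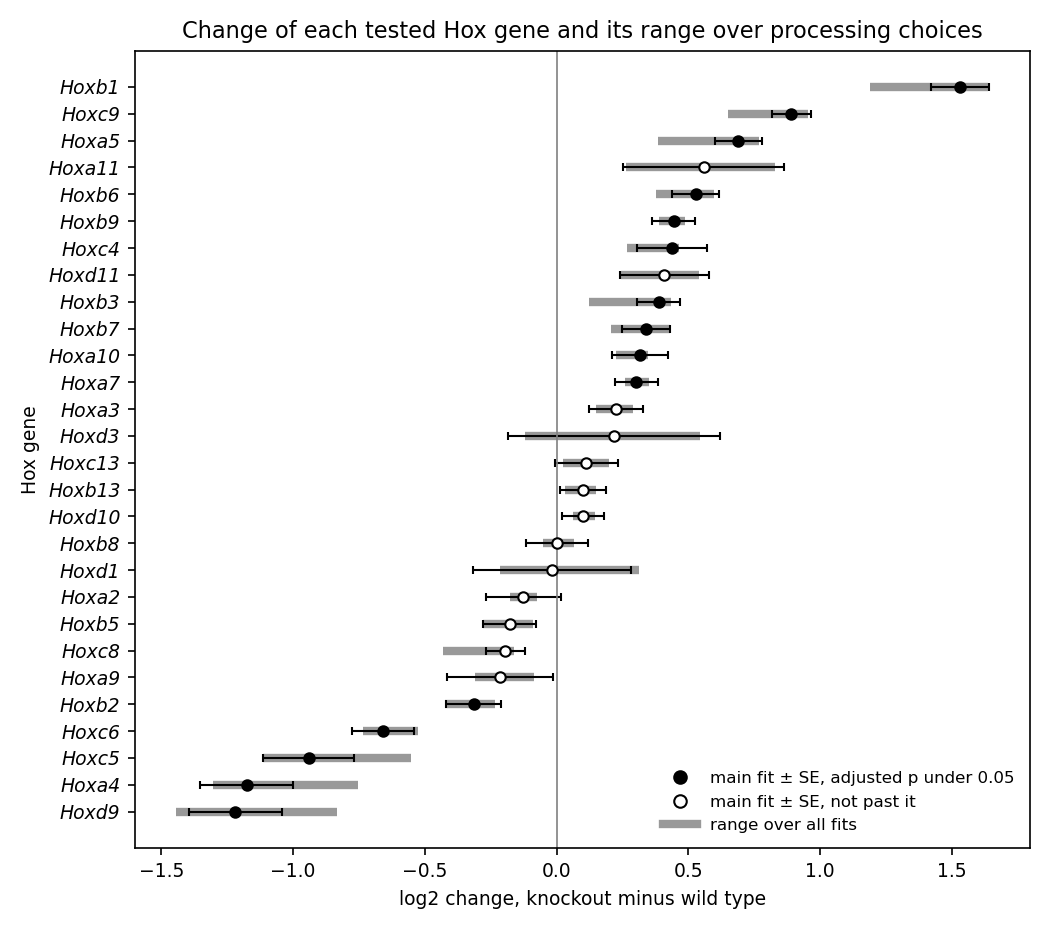
Log2 change of each tested Hox gene, knockout minus wild type, with its SE (points and bars, filled for adjusted p under 0.05) and the lowest and highest value over all fits (grey). Of the 15 called genes, none has a range that reaches 0. Among the genes not called, Hoxd3 ranges from -0.12 to 0.55.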

How the data were processed

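Each array gave 1 column of values. The values deposited by the authors are linear spot intensities with column medians from 0.956 to 0.966. How they were background-corrected and scaled is not given in the sources used here. Precision is limited by the number of arrays.

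Intensities under the 5th percentile of positive values (0.0811) were raised to it before taking log2. Testing required values on 2 or more arrays per genotype and a mean log2 over the 25th percentile among probes (an intensity of 0.217), which left 15062 of 20289 probes. The test was limma's (version 3.58.1, R 4.3.3; lmFit, then eBayes with trend), 3 arrays against 3, two-sided, with Benjamini-Hochberg adjustment over all tested probes, after a test on simulated data. A fold is 2 to the power of the log2 change. Where the lower genotype's mean lay under the filter limit, the fold is a lower bound set against that limit. Means ± SD are of intensities.

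A gene with several probes stands by the brightest of those measured on all arrays. Platform symbols were updated through Entrez identifiers with the RefSeq table of GRCm38.p6, in which all 33 Hox probes matched. Related Hox genes may cross-hybridise, and probe sequences were not used here. All Hox genes on the array are accounted for, and of each other list the counts and at most a few of the largest changes. Neighbours are the 3 nearest protein-coding genes on each side of a cluster, predicted loci left out. Alternatives covered scaling, floor, filter, variance prior, array weights, a replicate block and leaving out each array. The members and lists were chosen with earlier results of these data known.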

Additional observations from a re-analysis of the deposited data

How the results depend on the processing

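Over the alternatives the count of Hox genes higher in the knockout ran from 7 to 12 (10 as reported) and that of lower ones from 4 to 6 (5 as reported), the median log2 change of tested Hox genes from 0.09 to 0.26, and the counts over all probes stayed within 1.5 times those reported. Leaving out 1 array at a time gave 7 to 12 higher and 4 to 6 lower Hox genes. Shared replicate numbers did not pair the arrays: the same-numbered arrays' deviations from their group means correlated at 0.0005, -0.0208 and -0.0057. With the replicate number as a block, 10 Hox genes were higher and 5 lower, with Hoxa10 lost (adjusted p = 0.0551) and Hoxd11 gained (adjusted p = 0.0285). Without a trend in the variance prior Hoxb2 and Hoxb7 did not pass (adjusted p = 0.0895 and 0.0514), and without the filter on dim probes Hoxa10 and Hoxc4 did not (0.0728 and 0.051).

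A change of direction occurred at 3 genes that were not called. Leaving out 1 array at a time, the log2 change of Hoxb8 ran from -0.052 to 0.066, below 0 without wild-type array 1 or 2 or knockout array 3. That of Hoxd1 ran from -0.22 to 0.31, above 0 without the same arrays, and was 0.0068 on log2(intensity + 0.5). That of Hoxd3 ran from -0.12 to 0.55, below 0 without wild-type array 1 or knockout array 3. The cause was not tested. Where each Hox gene stood by the mean of its probes, nothing changed, as Hoxd13 alone has 2 probes and stays under the filter limit. On log2(intensity + 0.5), the log2 changes of Hoxa4, Hoxc4 and Hoxc5 were -0.75, 0.27 and -0.55, smaller by construction at low intensity, and still passed. Dim probes limit the statements on Hoxa6, Hoxa13, Hoxb4 and Hoxd13.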
